A study of Homo sapiens with 15 samples.

Results

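The aminoacyl-tRNA synthetases are the enzymes that join each amino acid to its tRNA, and 35 of their genes were listed, 19 for enzymes that work in the cytosol and 16 for mitochondrial enzymes, whose symbols end in ARS2. A gene was measured where a transcript cluster, the array's unit for a gene, carried its symbol or the older form of it (GARS for GARS1) and no other symbol, and the cluster with the highest mean over all arrays was kept. This gave 32 of the 33458 gene symbols on the array, 17 cytosolic and 15 mitochondrial. The samples were A549 cells, an established human lung adenocarcinoma line, grown to a confluent layer on porous membranes and fed from below while gas flowed over the top (air-liquid interface). The test gas was the vapor of dimethylamine, a volatile secondary amine, at 14.9 ppm (low dose, LD), 41.1 ppm (mid dose, MD) or 81.7 ppm (high dose, HD). Controls received clean air under the same flow (CA, 0 ppm) or stayed without any flow (non-exposure control, NEC). Each exposure took 60 min with 23 h of rest after it, and 3 of these rounds filled 72 h with the medium left in place. All groups shared the cell line, the membranes and the removal of serum before exposure. Each of the 3 arrays per group (15 in all) held RNA pooled from 2 wells, so the p-values reflect how far such pools of one cell line spread. They do not measure the spread between separate exposures to a dose, as all 3 arrays of a dose came from a single exposure plate. The arrays within CA and within NEC came from different plates. The spread estimated over all groups thus mixes pools within a plate with pools of different plates.

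Each synthetase recognises 1 amino acid and the tRNAs that carry it, except that EPRS1 joins a glutamyl and a prolyl enzyme in a single chain. Most cytosolic enzymes and their mitochondrial partners are products of different genes, all of them in the nucleus. Uncharged tRNA activates the kinase GCN2, phosphorylation of the initiation factor eIF2 then favours translation of the transcription factor ATF4, and ATF4 raises genes of amino acid synthesis and uptake together with many cytosolic synthetases. In several of these promoters ATF4 is known to read a composite of a C/EBP and an ATF site, TGATGNAAN.

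The cell line was checked against marker genes before the comparisons. All 11 markers of A549 cells and simple epithelium (keratins, EPCAM, AKR1B10 and others) lay above the level of the array's negative control probes (4.70 on the log2 scale) in every group. Of 6 markers of alveolar type II cells, the cell type that A549 stands for as a model, 4 lay below that level in all groups (SFTPC, SFTPB, SFTPA1 and NKX2-1). Among markers of other cells, 2 of 7 leukocyte genes, 2 of 4 fibroblast genes and 3 of 4 endothelial genes were below it, and the leukocyte gene CD79A rose in HD (log2 difference from CA 2.19, SE 0.37, adjusted p = 0.0458, limma). The leukocyte list as a whole had array means of 7.39 to 7.68 in HD and 6.91 to 7.28 in CA and a median difference of 0.09, with CD68 at 0.75, PTPRC at -0.17, CD14 at -0.15 and both CD3D and MS4A1 below the negative controls, and its part in the results was not tested. In bulk RNA, fewer cells of a type and less RNA per cell cannot be told apart. The LD arrays were all from exposure plate 1, the MD arrays from plate 5 and the HD arrays from plate 6, while CA and NEC had 1 array from each plate. The median over 17618 protein-coding genes differed by up to 0.66 between arrays and was -0.15 in LD against CA, so differences are read beside that median.

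The composite element was searched on both strands in RefSeq promoter windows of GRCh38.p14, which run from 250 bases before to 50 bases after a start site. It stood in 3.61% of all 35116 windows and in 3.60% of 15842 protein-coding genes with a window. Of the 16 listed cytosolic synthetases with a window, 7 held it (43.8%), against 1 of 14 mitochondrial ones (7.14%) and 7 of 20 amino acid response genes (35.0%). No window was given for LARS1, VARS1, YARS1, AARS2 and VARS2, and in GARS1, TARS1 and CARS1 the element stood in 1 of 2 windows. The matches are shown 5′ to 3′ on the strand that reads the element, with the element in capitals, because the members that carry it are compared further on with those that do not. ASNS and CHAC1, textbook targets of ATF4, are added for comparison.
GARS1, chr7:30594834-30594862, minus strand: gctcggagcaTGATGAAATcgccgcgtaa
IARS1, chr9:92293693-92293721, plus strand: cgcacggaggTGATGCAACgcgctgaaaa
CARS1, chr11:3057408-3057436, plus strand: tcctagaatcTGATGCAACcgccgccccg
NARS1, chr18:57621804-57621832, minus strand: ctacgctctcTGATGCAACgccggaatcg
AARS1, chr16:70289676-70289704, plus strand: ctaacttggcTGATGCAACtgcgagaaaa
TARS1, chr5:33440956-33440984, minus strand: ctggaccagcTGATGCAATcgaaaggcgc
MARS1, chr12:57488053-57488081, minus strand: aatccctcgcTGATGCAACcggaaccggc
YARS2, chr12:32756076-32756104, minus strand: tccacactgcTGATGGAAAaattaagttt
ASNS, chr7:97872458-97872486, minus strand: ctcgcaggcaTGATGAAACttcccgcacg
CHAC1, chr15:40953251-40953279, minus strand: ctggcaggagTGATGCAACggcaggggag
In 5 of these 7 cytosolic windows the element read TGATGCAAC, the same 9 letters as in CHAC1. A match is a run of letters in a window and no measurement of binding.

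The first comparison asked how synthetase RNA differed between the high dose and clean air. At HD the cytosolic synthetases lay higher than in CA as a group, with a median log2 difference of 0.42, whereas the mitochondrial synthetases did not, with a median of -0.07. The median over all protein-coding genes was 0.03, and 55% of them were above 0. Among cytosolic enzymes 14 of 17 differences were above 0, from -0.14 for VARS1 to 1.42 for YARS1. Among mitochondrial enzymes 7 of 15 were above 0, from -0.36 for IARS2 to 0.73 for CARS2. No synthetase passed an adjusted p of 0.05 (limma with Benjamini-Hochberg adjustment over all clusters), where 59 of 135750 clusters did (0.0435%). At an unadjusted p below 0.05, 6 cytosolic genes were higher and 0 lower (35.3% higher), beside 3.08% higher and 3.3% lower over all clusters and 7.04% higher over the protein-coding genes above the negative control level. With the rule that the study used for its arrays (unadjusted p below 0.05, over 2-fold), GARS1 and YARS1 were the 2 members that passed, beside 0.821% of all clusters, and the counts were 3 in HD against NEC (1.26%), 2 in HD against LD (1.08%) and 1 in HD against MD (0.306%). Under that rule the count in HD against CA was 1 with the exposure plate as a block, where GARS1 was at 0.92 on the log2 scale, and 0 without CA replicate 1. With the mean of the clusters of a symbol it was 1, GARS1. The block left 2 cytosolic genes at an unadjusted p below 0.05, GARS1 and YARS1, with medians of 0.26 for the cytosolic and -0.20 for the mitochondrial class. Here and below, shares over all clusters belong to the fit without the block. Counts with the block, with centred arrays or without an array have no such share beside them. Of mitochondrial genes 1 was higher at that threshold, CARS2, and 0 lower.

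**Figure D1:**
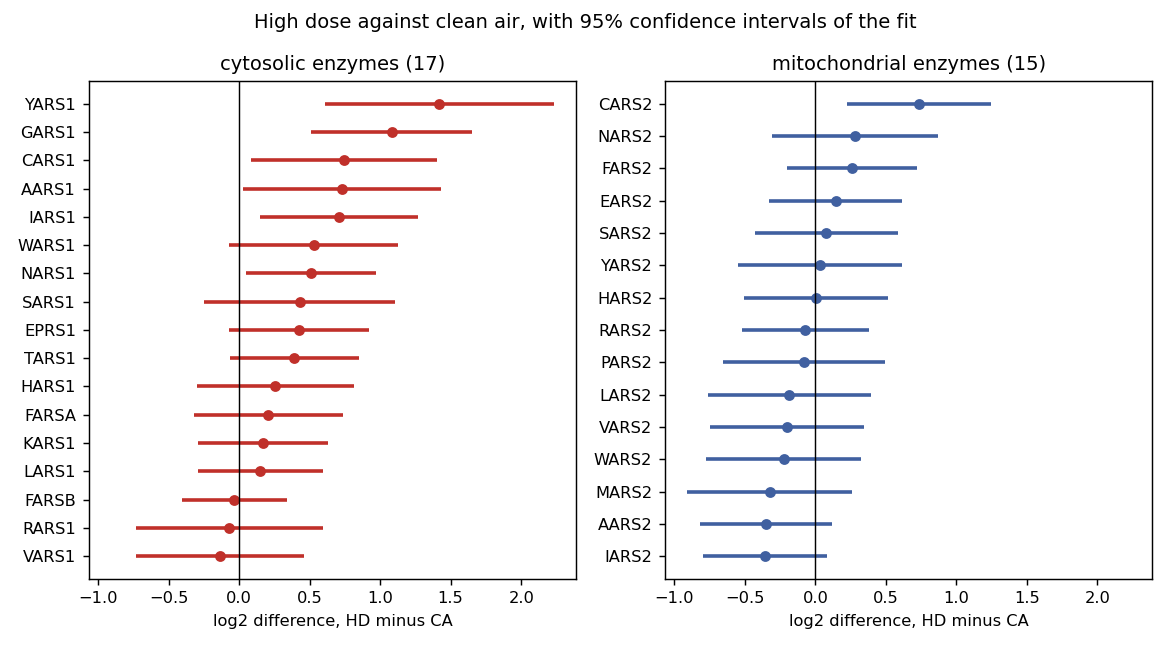
Log2 difference between HD and CA for each of the 17 cytosolic (left) and 15 mitochondrial (right) synthetases, with points for the estimate and lines for the 95% confidence interval of the limma fit. The cytosolic genes spread from -0.14 to 1.42 and the mitochondrial genes from -0.36 to 0.73.

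GARS1 (gene ID 2617, chr7:30594735-30634033), the glycyl enzyme, which like the lysyl enzyme serves both the cytosol and mitochondria, had the smallest p of all members. Its log2 signals were 13.82, 14.16 and 14.16 in CA and 15.01, 14.83 and 15.54 in HD. They were 13.87, 14.16 and 14.34 in NEC, 14.02, 14.00 and 13.72 in LD, and 13.59, 14.19 and 14.74 in MD. All HD arrays lay above all other 12 arrays, and MD was the most widely spread group. The HD mean was 1.08 above CA on the log2 scale (SE 0.27, 2.12-fold, unadjusted p = 0.000978, adjusted p = 0.308). Within plate 6 alone the difference from the CA array was 0.97.

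YARS1 (gene ID 8565, chr1:32775239-32817358), the tyrosyl enzyme, gave 7.36, 9.08 and 9.14 in CA and 9.64, 9.87 and 10.33 in HD. NEC gave 8.42, 9.44 and 8.89, LD 8.65, 8.75 and 8.38, and MD 8.56, 8.87 and 9.03. The HD arrays were again the highest of all 15, and CA replicate 1 stood far below the other CA arrays. The difference from CA was 1.42 (SE 0.38, 2.68-fold, adjusted p = 0.371), and it was 0.83 without CA replicate 1. The unadjusted p of YARS1, of GARS1 and of CARS2 stayed below 0.05 in each of 27 settings. These settings overlap, as some reused the same fit and others left out only an array outside HD and CA. A dimmer second cluster for the same gene, annotated as YARS, differed by 0.34 between HD and CA (SE 0.28), and there MD lay above CA by 0.53. In this second cluster the difference was -0.33 between HD and NEC and -0.19 between HD and MD, opposite in sign to the brighter cluster.

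IARS1 (chr9:92210207-92293697), the isoleucyl enzyme and a subunit of the multisynthetase complex, gave 10.85, 11.71 and 11.63 in CA and 12.06, 11.89 and 12.37 in HD. The HD arrays did not overlap those of any other group. The difference was 0.71 (SE 0.26, adjusted p = 0.654). CARS1 (chr11:3000929-3057423), the cysteinyl enzyme, gave 7.27, 7.58 and 7.77 in CA and 7.53, 8.51 and 8.82 in HD. Its HD replicate 1 lay among the CA arrays, so the groups overlapped. The difference was 0.75 (SE 0.31, adjusted p = 0.727).

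AARS1 (chr16:70252298-70289506), the alanyl enzyme, gave 12.59, 12.90 and 13.28 in CA and 13.43, 13.63 and 13.89 in HD. The NEC arrays were 11.64, 12.83 and 13.13, the first of them lower than any other array. HD lay above CA without overlap, by 0.73 (SE 0.33, adjusted p = 0.766), and by 0.38 within plate 6. NARS1 (chr18:57600656-57621836), the asparaginyl enzyme, gave 13.59, 13.85 and 13.43 in CA, 13.86, 14.14 and 14.45 in MD and 13.89, 14.42 and 14.09 in HD. Both of these dose groups lay above CA, and their means were alike (14.15 in MD, 14.13 in HD), so NARS1 did not follow the order in which HD stands alone. HD exceeded CA by 0.51 (SE 0.22, adjusted p = 0.741).

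WARS1, the tryptophanyl enzyme, gave 11.42, 11.50 and 11.60 in CA and 11.56, 12.20 and 12.34 in HD. TARS1, the threonyl enzyme, gave 11.51, 11.16 and 11.15 in CA and 11.35, 11.80 and 11.84 in HD. In both genes HD replicate 1 fell inside the CA range while the other HD arrays were above it. The differences were 0.53 (SE 0.28, adjusted p = 0.828) for WARS1 and 0.39 (SE 0.22, adjusted p = 0.838) for TARS1. Over the cytosolic class, 5 of 17 genes had HD arrays wholly above the CA arrays (GARS1, YARS1, IARS1, NARS1 and AARS1) and 0 wholly below, beside 5.19% above and 5.61% below over all clusters, and 9.98% above over the protein-coding genes above the negative controls.

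**Figure D2:**
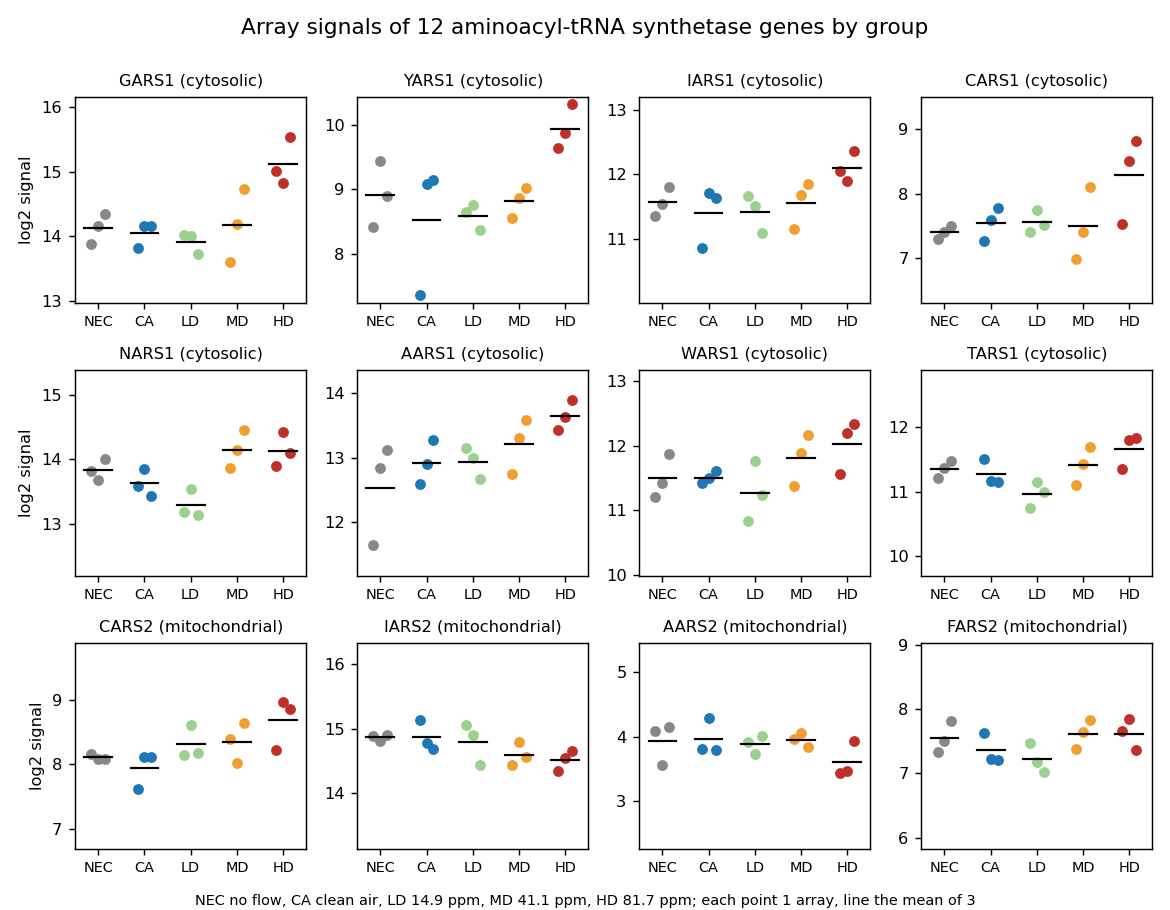
Log2 signal of 12 synthetase genes, the 8 cytosolic and 4 mitochondrial ones with the smallest p for HD against CA, with 1 point per array and a line at the mean of 3. Each panel spans the same range of log2 units, and in GARS1, YARS1 and IARS1 the HD arrays lie above those of the other 4 groups.

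The remaining cytosolic genes differed from CA by -0.14 to 0.43 at HD, all with overlapping arrays. Among them EPRS1 (0.42) and SARS1, the seryl enzyme (0.43), were near the class median, and KARS1, the lysyl enzyme, was at 0.17. FARSB, a subunit of the phenylalanyl enzyme, had the smallest difference of the class. Its signals were 13.41, 13.18 and 13.21 in CA and 13.15, 13.29 and 13.26 in HD, groups that overlapped, and the difference was -0.03 (95% confidence interval -0.40 to 0.34). VARS1, the valyl enzyme, gave 5.78, 5.58 and 6.25 in CA and 6.13, 5.32 and 5.75 in HD, with overlap and a difference of -0.14 (SE 0.28).

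Among the mitochondrial enzymes CARS2 (chr13:110641410-110713522), the cysteinyl enzyme, stood apart. It gave 7.62, 8.12 and 8.12 in CA and 8.23, 8.97 and 8.87 in HD, and 8.14, 8.61 and 8.18 in LD. Every HD array lay above every CA array, though HD replicate 1 did so by little and lay below an LD array. The difference was 0.73 (SE 0.24, 1.66-fold, unadjusted p = 0.00784, adjusted p = 0.551), near that of its cytosolic partner CARS1.

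IARS2 (chr1:220094132-220148041), the mitochondrial isoleucyl enzyme, was the only member with HD arrays wholly below CA. It gave 15.14, 14.77 and 14.69 in CA and 14.33, 14.54 and 14.65 in HD. The gap between the highest HD and the lowest CA array was small, and the difference was -0.36 (SE 0.21, adjusted p = 0.855). Thus 1 of 15 mitochondrial genes lay wholly above CA and 1 wholly below, beside 5.19% above and 5.61% below over all clusters. These counts were near those shares. FARS2, the phenylalanyl enzyme, gave 7.63, 7.23 and 7.21 in CA and 7.66, 7.84 and 7.36 in HD. Its groups overlapped and the difference was 0.26 (SE 0.22, adjusted p = 0.927). AARS2, the alanyl enzyme, gave 3.80, 4.29 and 3.79 in CA and 3.44, 3.47 and 3.94 in HD, and like VARS2 it lay below the negative control level in all groups, so no fold is given for these 2 genes.

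HARS1 and HARS2, the cytosolic and mitochondrial histidyl enzymes, start 85 bases apart on chromosome 5 and point away from each other, and their promoter windows share 184 bases, none of which held the element. HARS1 gave 10.42, 10.61 and 10.54 in CA and 10.21, 11.04 and 11.10 in HD. HARS2 gave 8.77, 8.68 and 8.82 in CA and 8.35, 9.19 and 8.74 in HD. In both, HD replicate 1 was the lowest of the HD arrays, below all CA arrays, and HD replicate 2 was above all CA arrays. The differences were 0.26 (SE 0.26) for HARS1 and 0.01 (SE 0.24) for HARS2, and neither passed the test.

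Set side by side, the cytosolic enzyme had the larger HD-CA difference in 9 of 9 partner pairs, by a median of 0.33. This left out the alanyl and valyl pairs, whose mitochondrial members lay below the negative controls. The phenylalanyl enzymes and EPRS1 with EARS2 and PARS2 were also outside these pairs. With arrays centred on their protein-coding median, FARS2 (0.21) lay above its cytosolic partners FARSA (0.15) and FARSB (-0.09). In that fit EPRS1 (0.37) lay above EARS2 (0.09) and PARS2 (-0.14). The pairs ranged from the arginyl enzymes (RARS1 -0.07, RARS2 -0.07) and the cysteinyl enzymes (CARS1 0.75, CARS2 0.73), which hardly differed, to the tyrosyl enzymes (YARS1 1.42, YARS2 0.04). The isoleucyl pair differed by 1.07, IARS2 lying below CA. With the plate as a block the count was 7 of 9, and within plate 6 it was 7 of 9, the arginyl and cysteinyl pairs turning in both. It was 8 of 9 in HD against NEC, and against CA 5 of 9 in NEC, 5 of 9 in LD and 6 of 9 in MD, comparisons that share arrays. These pairs were not tested as a set.

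The mean over each class on each array showed the same split without a choice of genes within the class. Relative to the CA mean, the cytosolic class lay at 0.18, 0.48 and 0.66 in HD and at -0.27, 0.10 and 0.17 in CA. The mitochondrial class lay at -0.21, 0.00 and 0.16 in HD and at -0.11, 0.03 and 0.08 in CA. Every HD array was above every CA array for the cytosolic class, HD replicate 1 only just, and the mitochondrial class overlapped. The controls of plate 6, the plate of all HD arrays, were themselves the highest of their groups for the cytosolic class (0.17 in CA and 0.14 in NEC), and those of plate 1 the lowest (-0.27 in both), and the part of the plate was not tested beyond the block. The gap between both means on an array, in which a shift equal in both classes cancels, was 0.39, 0.48 and 0.51 in HD (mean 0.46 ± 0.06, SD, n = 3). It lay between -0.18 and 0.30 on the other 12 arrays, the highest being MD replicate 3, so the HD arrays did not overlap with any other group. On plates 1, 5 and 6 the gap was -0.16, 0.07 and 0.09 in CA and -0.18, -0.06 and -0.05 in NEC. In both controls it was thus lowest on plate 1 and highest on plate 6, and the part of the plate in the gap was not tested. Group means of the gap were 0.10 ± 0.18 in MD, -0.07 ± 0.05 in LD and -0.10 ± 0.07 in NEC (SD, n = 3 each), with CA at 0.00 ± 0.14 by construction.

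**Figure D3:**
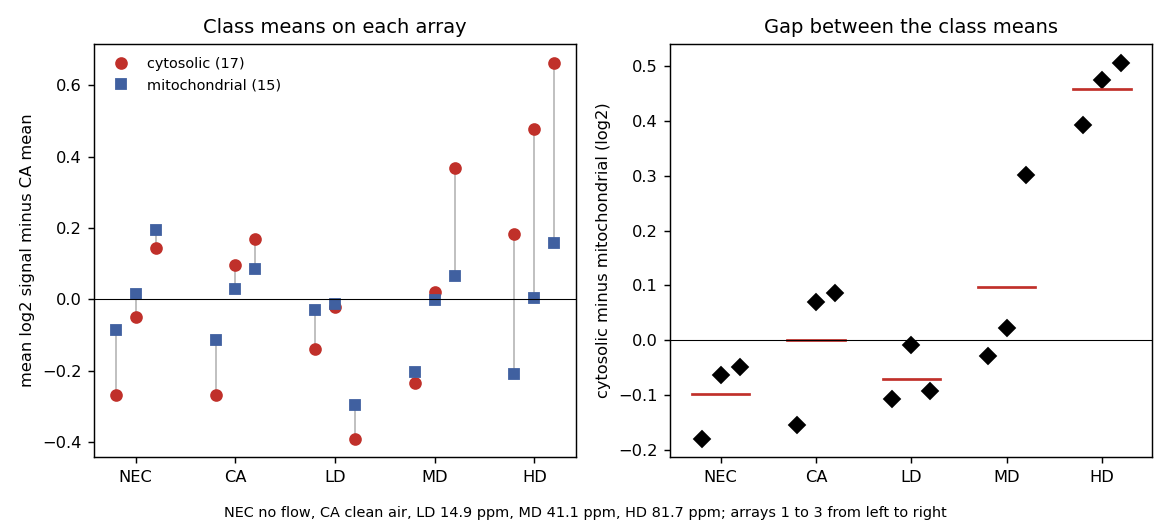
Left, the mean log2 signal of the 17 cytosolic (circles) and 15 mitochondrial (squares) synthetases on each of 15 arrays, relative to the CA mean of the class. Right, the gap between both means on the same arrays with a line at the group mean, between 0.39 and 0.51 in HD and at most 0.30 elsewhere.

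The mid dose did not show this split as a group. In MD against CA the medians were 0.13 for cytosolic and 0.00 for mitochondrial genes, and 0 members passed the adjusted p, as did 0 of all clusters (0%). NARS1 had the smallest p (0.53, SE 0.22, adjusted p = 0.783), with MD arrays wholly above CA. FARSB came next in the other direction, 12.64, 12.95 and 13.04 in MD against 13.41, 13.18 and 13.21 in CA, and its MD arrays lay wholly below CA by 0.39 (adjusted p = 0.805). In all, 2 cytosolic genes lay wholly above CA (5.18% of all clusters did) and 1 wholly below (6.23%). The MD arrays were uneven: the cytosolic mean was -0.23, 0.02 and 0.37 relative to CA, and without MD replicate 3 the cytosolic median turned to -0.15.

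At the low dose the medians against CA were -0.18 for cytosolic and -0.13 for mitochondrial genes, beside -0.15 for all protein-coding genes, and 0 members were called (0% of clusters). RARS2, the mitochondrial arginyl enzyme, had the smallest p. It gave 9.88, 9.64 and 9.64 in CA and 9.68, 9.08 and 8.87 in LD, where LD replicate 1 overlapped with CA and the others lay below. The difference was -0.51 (SE 0.21, adjusted p = 0.745), and the cytosolic arginyl enzyme RARS1 was at -0.70 (SE 0.31, adjusted p = 0.769). LD arrays lay wholly below CA in 3 of 17 cytosolic and 2 of 15 mitochondrial genes, beside 6.06% of all clusters and 10.1% of protein-coding genes above the negative controls, and wholly above in 0 and 1 (4.25% of all clusters). With arrays centred on their protein-coding median the class medians were 0.02 (cytosolic) and 0.07 (mitochondrial). With the plate as a block the cytosolic median turned to 0.06, and within plate 1 to 0.09. YARS1 was at 0.90 in the blocked fit (SE 0.32, adjusted p = 0.660, limma) and at 0.06 without the block. Within plate 1 YARS1 in LD was 1.24 above the CA array, the one far below the other CA arrays, and 0.17 above the NEC array.

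Clean air flow itself was compared with no flow. In NEC against CA the medians were 0.03 for cytosolic and 0.05 for mitochondrial genes, and 0 members were called (0% of clusters). VARS1 had the smallest p, with 5.55, 5.31 and 4.90 in NEC against 5.78, 5.58 and 6.25 in CA, all NEC arrays below all CA arrays, and a difference of -0.62 (SE 0.28, adjusted p = 0.913). It was among 2 cytosolic genes and 1 mitochondrial gene, HARS2, with NEC wholly below CA, beside 4.59% of all clusters.

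Against the other control the high dose gave a like picture, although both comparisons share the HD arrays. In HD against NEC all 17 cytosolic genes had differences above 0, with a median of 0.46, and 5 of 15 mitochondrial genes did, with a median of -0.04. Over all protein-coding genes the median was 0.05 and 57.1% were above 0. No member was called, where 0.236% of all clusters were. GARS1 was at 1.00 (SE 0.27, adjusted p = 0.207), AARS1 at 1.12 (SE 0.33, adjusted p = 0.279), CARS1 at 0.89 and YARS1 at 1.03. These 4 were the cytosolic genes at an unadjusted p below 0.05 and all were higher (23.5%), beside 3.86% of all clusters and 11% of protein-coding genes above the negative controls. Blocking on the plate gave 2 such genes, 15 of 17 cytosolic genes above 0 and a cytosolic median of 0.30. Within plate 6 the cytosolic median against the NEC array was 0.19, with 14 of 17 genes above 0. The second YARS cluster was at -0.33 (SE 0.28) in HD against NEC.

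Between doses the widest contrast was HD against LD, which also sets plate 6 against plate 1. All 17 cytosolic genes were above 0, with a median of 0.63, and 10 of 15 mitochondrial genes were, with a median of 0.16. Over all protein-coding genes the median was 0.19 and 74.4% were above 0. No member was called (0.0155% of clusters were). GARS1 was at 1.21 (SE 0.27, adjusted p = 0.161), YARS1 at 1.36 (SE 0.38, adjusted p = 0.293), NARS1 at 0.85 (SE 0.22, adjusted p = 0.228) and TARS1 at 0.70 (SE 0.22, adjusted p = 0.343). HD arrays lay wholly above LD in 10 of 17 cytosolic genes and 1 of 15 mitochondrial genes, beside 7.73% of all clusters and 18.2% of protein-coding genes above the negative controls. At an unadjusted p below 0.05 10 cytosolic genes were higher, beside 4.75% of all clusters and 15.3% of protein-coding genes above the negative controls. With centred arrays 3 were higher, 15 of 17 were above 0 and the median was 0.37. Blocking on the plate left 1, with 12 of 17 above 0 and a median of 0.18. The mitochondrial median turned to -0.10 with centred arrays (6 of 15 above 0) and to -0.12 with the block (5 of 15). In HD against MD the medians were 0.32 for cytosolic and 0.01 for mitochondrial genes with 0 called (0% of clusters), GARS1 being at 0.95 (SE 0.27) and YARS1 at 1.13 (SE 0.38).

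Taking the doses in order, the group means of 10 of 17 cytosolic genes went up from LD to MD to HD and 0 went down. In the mitochondrial class 3 of 15 went up and 1, IARS2, went down. Over all protein-coding genes 70.3% were above 0 in MD against LD and 56.2% in HD against MD. The share that rose at both steps was not counted. The doses lay on a plate each, and with the plate as a block 5 cytosolic genes went up and 2 down, and 1 mitochondrial gene went up and 3 down. In the group means HD was the highest of all 5 groups in 12 cytosolic and 3 mitochondrial genes, and the share of all clusters with HD highest was not counted. Regressing the signal on ppm, with the 12 arrays other than NEC, gave slopes of 0.0142 log2 units per ppm for GARS1 (SE 0.00334, adjusted p = 0.197) and 0.0176 for YARS1 (SE 0.0043, adjusted p = 0.221). No member was called, where 0.0744% of all clusters were. They were above 0 at an unadjusted p below 0.05 in 9 of 17 cytosolic genes and 1 of 15 mitochondrial genes, CARS2, beside 3.93% of all clusters and 10.6% of protein-coding genes above the negative controls.

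**Figure D4:**
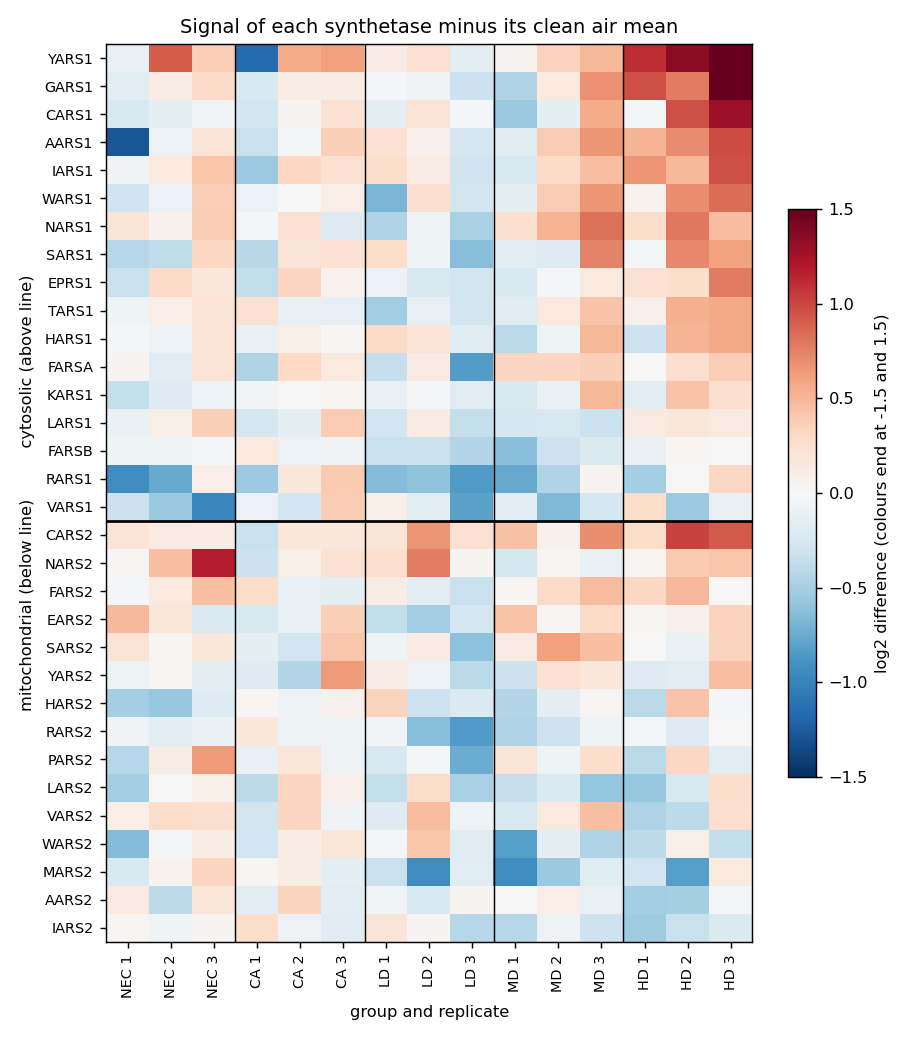
Log2 signal of each of the 32 synthetases on each array minus its CA mean, red for higher and blue for lower, with genes ordered within each class by their HD-CA difference and arrays by group and replicate. The upper rows turn red in HD and in MD replicate 3, and the rows below the thick line, the mitochondrial genes, are mixed apart from CARS2.

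The members were then set against what is known of their regulation and structure. The 6 measured cytosolic genes with the composite element differed by 0.39 to 1.08 between HD and CA, with a median of 0.72. The 8 without it differed by -0.07 to 0.53, with a median of 0.23. The 3 without a window spanned -0.14 (VARS1), 0.15 (LARS1) and 1.42 (YARS1), so the gene with the largest difference could not be placed. YARS2, the mitochondrial gene with the element, differed by 0.04, and CARS2, the mitochondrial gene with the largest difference, had windows without it. In MD against CA the medians with and without the element were 0.15 and 0.03, and in HD against LD 0.72 and 0.57. They were -0.06 and -0.22 in LD against CA, and 0.08 and -0.03 in NEC against CA. The genes with the element thus had the higher median in the comparison without vapor as well. These medians were not tested. Of 12 measured cytosolic genes known as ATF4 targets in mammalian cells 6 were higher at an unadjusted p below 0.05, with a median of 0.52, beside 3.08% of all clusters and 7.04% of protein-coding genes above the negative controls. Of 5 other cytosolic genes 0 were, with a median of 0.17. Blocking on the plate left 2 of the 6 (GARS1 and YARS1) and the medians were 0.36 and 0.04.

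**Figure D5:**
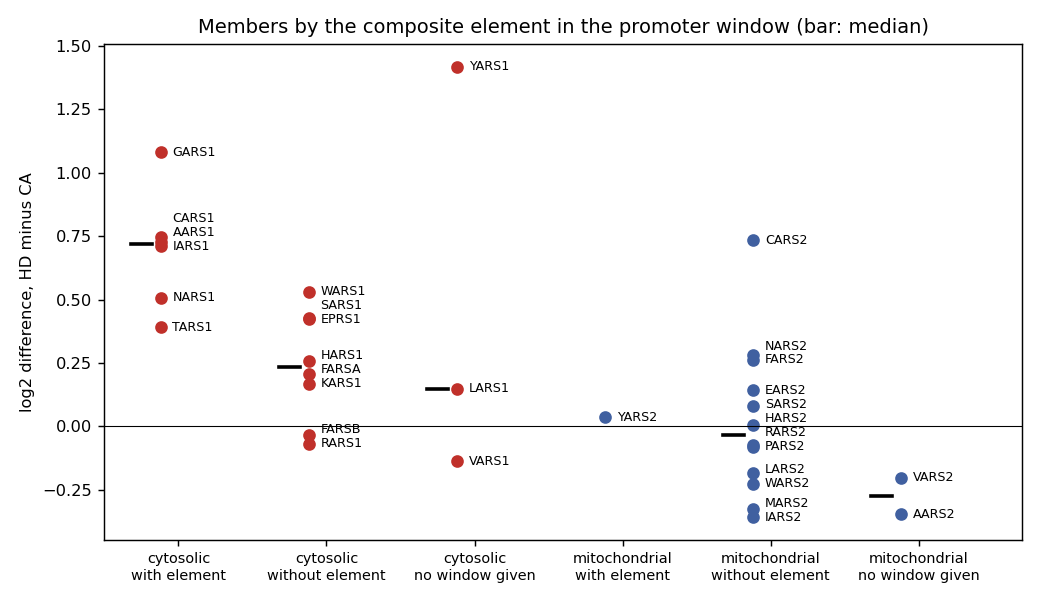
Log2 difference between HD and CA of each measured synthetase, split by class and by whether a RefSeq promoter window of the gene held the composite element, with a bar at the median. The 6 cytosolic genes with the element lie between 0.39 and 1.08 and the 8 without it between -0.07 and 0.53.

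Membership of the multisynthetase complex and the structural class of the enzyme gave smaller contrasts. The 5 measured enzymes of the complex had a median difference of 0.17 at HD, 1 of them, IARS1, at an unadjusted p below 0.05. The 12 free cytosolic enzymes had 0.47 with 5 such genes. All of these were higher, beside 3.08% of all clusters and 7.04% of protein-coding genes above the negative controls. Cytosolic class I enzymes, which bind ATP in a Rossmann fold, had a median of 0.48 over 8 genes, and class II enzymes, built on an antiparallel sheet, 0.39 over 9. Of the 3 non-enzyme scaffolds of the complex AIMP1 alone was measured, at -0.07 (SE 0.21).

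Genes outside the family were examined from lists of the same pathways. Of 26 measured genes of the amino acid response 24 had a difference above 0 between HD and CA, with a median of 0.76, and 15 were higher at an unadjusted p below 0.05, beside 3.08% of all clusters and 7.04% of protein-coding genes above the negative controls. With the plate as a block 8 were, for which no share over all clusters was counted, and the median was 0.36. DDIT3, a stress transcription factor downstream of ATF4, was the gene called, beside 0.0435% of all clusters (2.59, SE 0.30, adjusted p = 0.00428). ASNS, asparagine synthetase, whose element is shown above, was at 1.40 (SE 0.29, adjusted p = 0.152) and CHAC1, a glutathione-degrading enzyme, at 1.34 (SE 0.33, adjusted p = 0.300). PSAT1 of serine synthesis was at 1.25 (SE 0.24, adjusted p = 0.0923) and ATF4 itself at 1.32 (SE 0.37, adjusted p = 0.404). The mean of this list, relative to CA and to the protein-coding median of the array, was 0.60, 0.79 and 0.99 in HD, 0.09, 0.03 and 0.50 in MD, -0.24, 0.09 and 0.15 in CA and -0.24, 0.10 and 0.40 in NEC. In LD the mean was 0.02, 0.14 and -0.01. The HD arrays were the highest, and MD replicate 3 and NEC replicate 3 came next. NEC replicate 3 was from plate 6, the plate of all HD arrays. Both controls rose from plate 1 to plate 5 to plate 6, and the part of the plate was not tested beyond the block.

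Of 15 measured genes for other steps of tRNA charging and its proofreading 0 were at an unadjusted p below 0.05, with a median of 0.00. Among them QRSL1, a subunit of the mitochondrial amidotransferase that makes glutaminyl-tRNA, was at -0.44 (SE 0.22), and SEPSECS, which makes selenocysteinyl-tRNA, at 0.36 (SE 0.23). Of 17 genes of mitochondrial translation 1 was lower at that threshold, the ribosome recycling factor MRRF (-0.45, SE 0.21, adjusted p = 0.770), beside 3.3% of all clusters, and 0 were higher, with a median of 0.15.

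The 3 listed genes left out, MARS1, QARS1 and TARS2, stood in clusters that also name a microRNA gene. MARS1, the methionyl enzyme, gave 8.91, 9.90 and 9.73 in CA and 9.62, 10.10 and 10.50 in HD, overlapping groups with a difference of 0.56 (SE 0.37, adjusted p = 0.890). The glutaminyl gene QARS1 was at -0.11 (SE 0.27) and the mitochondrial threonyl gene TARS2 at 0.01 (SE 0.35). Admitting them left the cytosolic median at 0.42 and put the mitochondrial median at -0.03.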

How the data were processed

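RNA of 15 samples was hybridised to Human Clariom D arrays. The deposited values are log2 signals per transcript cluster that the authors made by robust multi-array averaging in the Transcriptome Analysis Console. Control clusters (2995) were left out and 135750 analysed. Symbols were taken from the platform annotation and updated through RefSeq. limma 3.58.1 (R 4.3.3) was fitted to the 5 groups (10 residual degrees of freedom). Its p-values were moderated, two-sided and adjusted by Benjamini-Hochberg over all clusters. The model was tested on simulated data with independent noise and no plate effect, so that check could not show an effect of the plate. Members and lists were chosen with earlier results of these data known. Genes given array by array were those with the smallest unadjusted p in HD against CA (8 cytosolic, 4 mitochondrial), the smallest difference per class, the smallest p in MD, LD and NEC against CA, HARS1 and HARS2. The labels name the exposure plate, a shared batch. CA and NEC arrays of one plate deviated together with r = 0.26, 0.07 and 0.20 (plates 1, 5 and 6). For CA and NEC arrays of different plates r lay between -0.22 and 0.06, so plate 5 hardly differed from an unmatched pair. Alternatives were the plate as block, other scalings, moderation, filters, adjustments, cluster choice and leaving out each array. Python 3.11.15 with pandas 2.3.3 and matplotlib 3.10.9 made counts and figures.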

Additional observations from a re-analysis of the deposited data

How the results depend on the processing

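No synthetase was called at an adjusted p of 0.05 in any comparison under any alternative that kept that threshold, the plate block included, the smallest value for HD against CA being 0.0979 for GARS1 when adjusted over protein-coding genes. By the criteria of the study (unadjusted p below 0.05 and a fold above 2), the counts were 2 in HD against CA (GARS1 and YARS1, 0.821% of clusters), 3 in HD against NEC, 2 in HD against LD and 1 in HD against MD. In HD against CA that count was 1 with the block, 1 without HD replicate 3 and 0 without CA replicate 1. It was 1 after quantile normalization (YARS1) and 3 without HD replicate 1. With the mean of the clusters of a symbol it was 1 (GARS1), as YARS1 no longer passed. With the exposure plate as a replicate block the cytosolic genes higher in HD against CA at an unadjusted p below 0.05 numbered 2 in place of 6. Leaving out single arrays gave 2 to 8, with 3 without HD replicate 2, 2 without HD replicate 3 and 3 without CA replicate 1. The difference between the cytosolic and mitochondrial medians in HD against CA was 0.49, and 0.30 to 0.56 without single arrays, the lowest without CA replicate 1. It was 0.45 with the block and 0.54 within plate 6. The mitochondrial median, -0.07, was 0.01 over clusters above the negative controls. Small HD-CA differences changed sign. FARSB was at 0.022 within plate 6, and between -0.078 and 0.0398 without single arrays. HARS2 was at -0.14 with the block, -0.0011 with a random block, -0.0215 after quantile normalization, -0.0509 with centred arrays, -0.0571 within plate 6, and between -0.21 and 0.21 without single arrays. RARS2 was at 0.0059 within plate 6, and between -0.11 and 0.0068 without single arrays. VARS1 was between -0.34 and 0.0696 without single arrays. The cause of these changes was not tested. The limits are 3 arrays per group, pools from one cell line, dose groups each on a plate of their own, and VARS2 and AARS2 below the negative controls.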
